A study of Mus musculus with 6 samples.

Results

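The insulin-like growth factor (IGF) system was followed through 9 genes in RNAseq of mouse choroid endothelial cells (ECs): the ligand gene Igf1, the 2 receptor genes Igf1r and Insr, and the 6 binding protein genes Igfbp2, Igfbp3, Igfbp4, Igfbp5, Igfbp6 and Igfbp7. They were picked by gene symbol, all 9 were found among the 22026 symbols of each sample, and all 9 were among the 12481 genes tested. Choroid ECs line the vessels behind the retinal pigment epithelium (RPE), and the study compared them at P5, while the outer retina is still differentiating, and at P30, when vision is mature. Each age had 3 independent isolations from 129/B6 mice, and each isolation pooled the RPE/choroid of 7 animals. P30 mice were of both sexes. The labels name no genetic change, and an antibody to VE-Cadherin was injected at both ages to mark ECs for sorting by flow cytometry. The pups were anaesthetized by cooling and got a smaller amount of antibody than the P30 mice, so that age, anaesthesia and amount cannot be told apart. The values are FPKM, fragment numbers scaled for transcript length and sequencing depth, so levels of different genes can be set side by side. The authors applied GC and upper quartile normalization, read counts were not used here, and the depth of each sample is unknown.

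IGF1 is a small growth factor related to insulin. It signals through the IGF receptor, the product of Igf1r, while insulin signals through the closely related insulin receptor, the product of Insr; both are tyrosine kinases that act through the adaptor proteins IRS1 and IRS2 on the PI3 kinase-AKT and MAP kinase pathways. Binding proteins hold secreted IGFs outside the cell, where they can block them from the receptors or carry and store them. IGFBP7 is a more distant relative that binds IGFs weakly, is made in quantity by ECs and associates with the vascular basement membrane and with the EC receptor CD93. In vessels, this system is known for its part in postnatal growth of the eye vasculature.

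The tie within the binding protein family can be read from their coding sequence. A run of codons for glycine, cysteine, glycine, cysteine, cysteine, any residue, any residue and cysteine lies in the part that binds IGF, and the cysteine codons are in capitals in these mm9 stretches, each inside exon 1 and matched base for base to the genome:
Igfbp2 (chr1:72871352-72871375, plus strand): ggcTGCggcTGCTGCtccgtgTGC
Igfbp3 (chr11:7113569-7113592, minus strand): ggcTGCggcTGCTGCctgactTGC
Igfbp4 (chr11:98902964-98902987, plus strand): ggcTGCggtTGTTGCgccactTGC
Igfbp5 (chr1:72920540-72920563, minus strand): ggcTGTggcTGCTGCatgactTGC
The same pattern of codons was not found in the annotated coding sequences of Igfbp6 and Igfbp7. For Igfbp2 it was found in the annotated transcript Igfbp2-001 and not in Igfbp2-002 or Igfbp2-201. Igfbp2 and Igfbp5 are neighbours on chromosome 1 (72871077 to 72899048 and 72904506 to 72921458 of mm9), on opposite strands.

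The marker genes of ECs were high in every isolation, with a summed FPKM over 12 genes of 23688 to 25876 at P5 and 34685 to 41844 at P30. The median log2 fold change of these 12 genes was 0.42. The ages did not overlap for 7 of them with P30 higher, and for 1, Cdh5, with P30 lower. Mean FPKM rose from 4692 to 11590 for Plvap, from 3002 to 5523 for Emcn and from 852 to 1942 for Flt1. In the other direction, Pecam1 (CD31) had a log2 fold change of -0.19 (limma adjusted p = 0.230). That of Cdh5, which encodes the VE-Cadherin used in the sort, was -0.66 (limma adjusted p = 0.00205). Markers of other cells were also present, and most were higher at P30. The summed FPKM of the 7 pericyte genes was 468 to 1712 at P5 and 1841, 6228 and 3819 in P30 replicates 1, 2 and 3. That of the 8 fibroblast genes was 742 to 1212 at P5 and 1821, 4559 and 2419.8 at P30. That of the 5 smooth muscle genes was 79.5 to 139.6 at P5 and 361, 854 and 201 at P30. The 7 RPE genes summed to between 65.5 and 144 at P5 and to 3796, 2109 and 495 at P30, and the 7 photoreceptor genes to between 2.21 and 8.49 at P5 and between 41.8 and 361 at P30. The 5 melanocyte genes had 97.0 to 457 at P5 and 119.9 to 1251 at P30, and the 4 Schwann cell genes 9.75 to 47.1 and 42.4 to 271. Haematopoietic markers went the other way, with 1037 to 1329 at P5 and 367 to 1030 at P30 over 8 genes. No listed marker was at 0 in every sample. In sorted pools, a larger share of a cell type and more RNA per cell cannot be told apart.

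**Figure D1:**
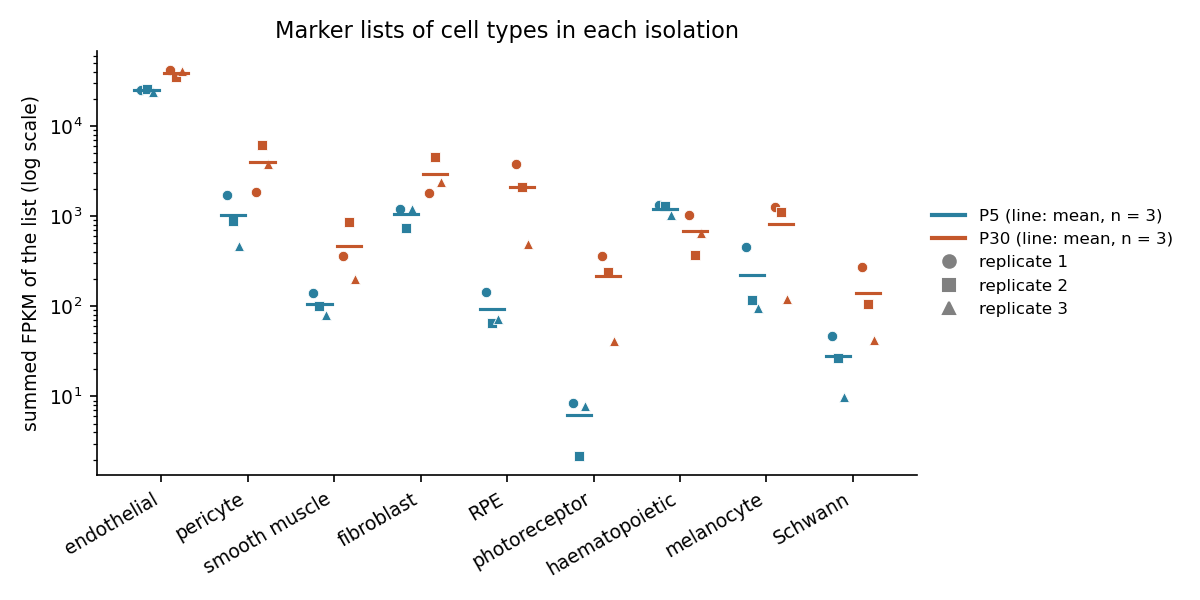
Summed FPKM of each marker list (log axis) in the 3 P5 and 3 P30 isolations, with symbols for replicates and lines for means. Pericyte and fibroblast sums were highest in P30 replicate 2 and RPE sums in P30 replicate 1, while the endothelial sum lay between 23688 and 41844 in all isolations.

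The receptor for insulin rose with age and the receptor for IGF1 did not pass the test. Insr and Igfbp7 were the members called higher at P30, 2 of 9, with a call needing a limma adjusted p below 0.01 together with a 2-fold change of the mean FPKM + 1. The same call was made for 5.89% of all 12481 genes. Igfbp3 passed the adjusted p but not the 2-fold limit, so that 3 of 9 members were higher by adjusted p alone, against 8.51% of all genes. None of the 9 was called higher at P5 by limma, against 5.82% of all genes, and none was higher at P5 by adjusted p alone, against 10.7%. The ages did not overlap, with P30 above, for 5 members (Insr, Igfbp3, Igfbp5, Igfbp6 and Igfbp7), against 22.0% of all genes tested, and with P30 below for 1 member (Igfbp4), against 33.0%. The members had a median log2 fold change of 1.18, and all genes tested one of -0.10.

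**Figure D2:**
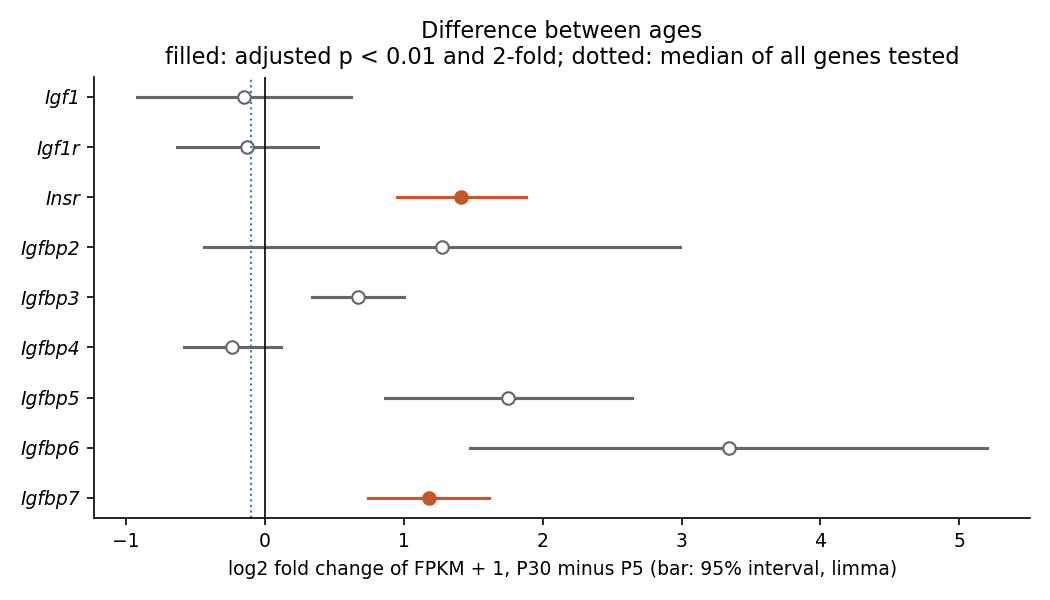
Log2 fold change of FPKM + 1 from P5 to P30 for each member with its 95% interval from limma (x axis), with filled points for members called and a dotted line at the median of all genes tested (-0.10). Insr (1.42) and Igfbp7 (1.18) are filled, and the intervals of Igf1, Igf1r, Igfbp2 and Igfbp4 cross 0.

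Insr (chromosome 8, 3150922 to 3279617 of mm9, minus strand) had an FPKM of 119.5, 98.8 and 88.3 at P5 and of 363, 227 and 245 at P30, in the order of replicates 1, 2 and 3 used throughout. The ages did not overlap, and P30 replicate 1 stood highest. The mean rose from 102 ± 15.9 to 278 ± 74.0 (SD, n = 3), a log2 fold change of 1.42 (SE 0.20, limma adjusted p = 0.00195). With each sample divided by the level of its endothelial markers, the adjusted p was 0.00236 and the log2 fold change 0.97, just under the 2-fold limit. That level, a geometric mean, was itself 1613 to 1773 at P5 and 2219 to 2519 at P30. A change of the marker genes with age and a larger share of ECs cannot be told apart. The scaling is thus not a correction for EC content. That scaling moved the median of all genes tested by -0.44. A single factor per sample shifts all genes nearly alike. The distance of Insr from the median, 1.51 without scaling, is thus nearly fixed and is no test of its change. Without P5 replicate 2 and without P5 replicate 3, the adjusted p was 0.0120 and 0.0131.

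Igf1r (chromosome 7, 75097713 to 75371484, plus strand) had an FPKM of 46.0, 39.0 and 39.0 at P5 and of 27.0, 45.6 and 43.3 at P30. The ages overlapped, and P30 replicate 1 alone lay below the P5 isolations. The log2 fold change was -0.13 with a 95% interval from -0.63 to 0.38 (limma adjusted p = 0.667). Without P30 replicate 1 the log2 fold change was 0.11.

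The FPKM of Insr divided by that of Igf1r within each isolation, a ratio that no common factor of the sample can move, was 2.60, 2.54 and 2.26 at P5 and 13.4, 4.97 and 5.66 at P30. The receptor ratio was thus above 1 in all isolations and higher in each P30 isolation than in any at P5. Its mean was 2.47 ± 0.177 at P5 and 8.02 ± 4.71 at P30 (SD, n = 3), 3.25 times as high. P30 replicate 1, with both the highest Insr and the lowest Igf1r, stood apart, and without it the P30 mean was 2.15 times that of P5. The same isolation had the highest RPE (3796), photoreceptor (361), melanocyte (1251) and Schwann cell (271) sums, whose part in either receptor was not tested. The deposited values do not separate the splice forms of Insr.

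**Figure D3:**
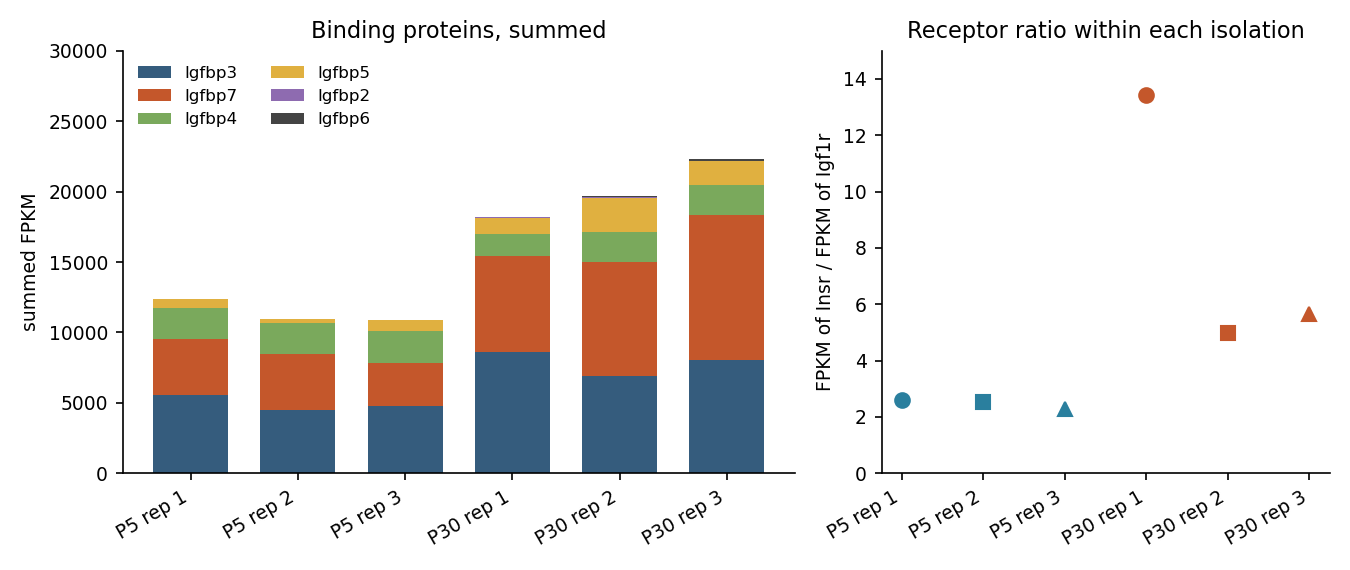
Left, summed FPKM of the 6 binding protein genes in each isolation, stacked by gene from 0, which ran from 10867 to 12362 at P5 and from 18198 to 22281 at P30. Right, FPKM of Insr divided by FPKM of Igf1r in each isolation, between 2.26 and 2.60 at P5 and between 4.97 and 13.4 at P30.

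The ligand gene Igf1 (chromosome 10, 87321010 to 87399792, plus strand) had an FPKM of 146, 105 and 104 at P5 and of 101, 174 and 65.9 at P30. The P30 isolations spanned all the P5 values. The log2 fold change was -0.15 (95% interval -0.92 to 0.62, limma adjusted p = 0.742) and changed sign without P5 replicate 1 (0.01) or without P30 replicate 3 (0.19). The mean level was 118 ± 23.6 at P5 and 114 ± 55.4 at P30.

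**Figure D4:**
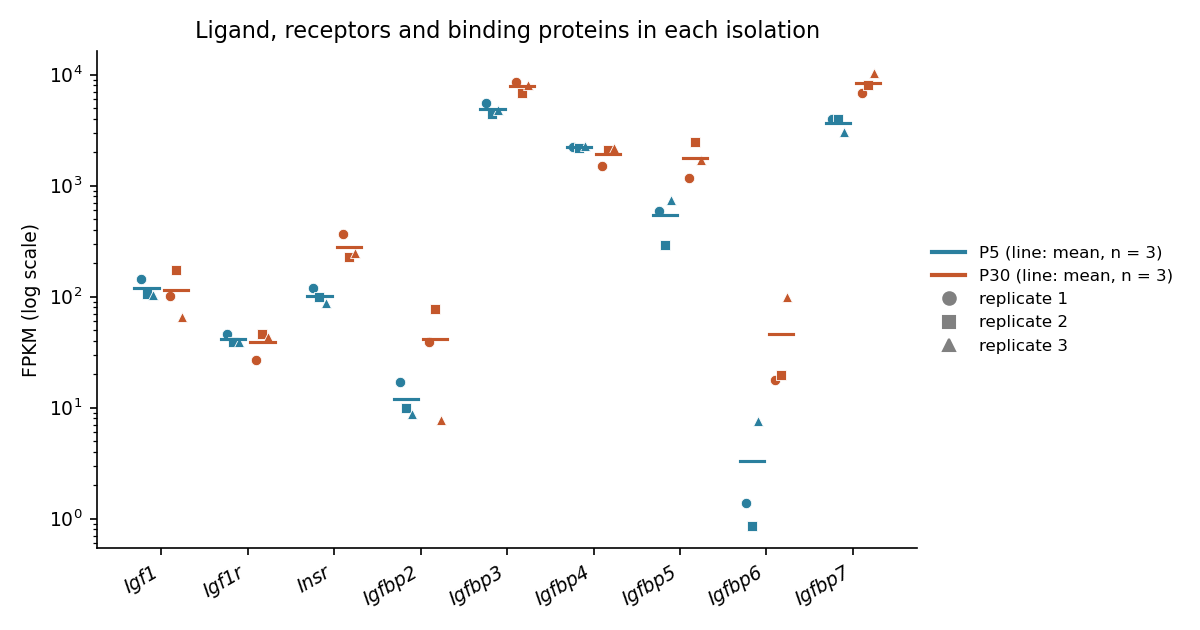
FPKM of the 9 members (log axis) in each P5 and P30 isolation, with symbols for replicates and lines for means of 3. Igfbp3, Igfbp4 and Igfbp7 are the highest at both ages, and Igfbp2 and Igfbp6 spread most within P30.

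Igfbp3, Igfbp4, Igfbp5 and Igfbp7 transcripts were above those of the ligand and both receptors at each age, while Igfbp2 and Igfbp6 were below Igf1 and Insr by mean level. Summed over the 6 genes, the FPKM came to 12362, 10984 and 10867 at P5 and to 18198, 19669.6 and 22281 at P30, so that all P30 sums exceeded all P5 sums. The mean sum was 11405 ± 831 at P5 and 20049.6 ± 2067 at P30, 1.76 times as high. The ratio depended on the scaling, at 1.57 with the same total in each sample, 1.29 with scaling to endothelial markers and 1.07 after quantile normalization. Igfbp3, Igfbp7 and Igfbp4 made up 43.1%, 32.4% and 19.6% of the sum at P5, and 39.5%, 41.7% and 9.53% at P30. The share of Igfbp4 was 17.9% to 20.9% in the P5 isolations and 8.29% to 10.6% in the P30 isolations, without overlap.

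Igfbp7 (chromosome 5, 77778265 to 77837070, minus strand) had an FPKM of 4000.5, 4012 and 3072 at P5 and of 6861, 8130.2 and 10266.5 at P30. All P30 isolations were well above all P5 isolations, with P30 replicate 3 the highest. The mean rose from 3695 ± 539 to 8419 ± 1721, a log2 fold change of 1.18 (SE 0.19, limma adjusted p = 0.00308). It ranked 10 at P5 and 8 at P30 among the 12481 genes tested, and quantile normalization, which gives genes of equal rank an equal value, left a log2 fold change of 0.42 (adjusted p = 0.215). With scaling to endothelial markers the log2 fold change was 0.73 (limma adjusted p = 0.0124). This is 1.26 above the median of all genes under that scaling, a distance that such a scaling leaves nearly fixed and that is no test. Without any one of P5 replicates 1, 2 and 3 the adjusted p was 0.0116, 0.0145 and 0.0158.

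Igfbp3 (chromosome 11, 7106089 to 7113926, minus strand), which encodes the main IGF carrier of serum, had an FPKM of 5546, 4462 and 4769 at P5 and of 8597, 6899 and 8048 at P30. The ages did not overlap. The mean was 4926 ± 558 at P5 and 7848 ± 866 at P30, 1.59-fold higher (log2 fold change 0.67, SE 0.14, limma adjusted p = 0.00966). This adjusted p was just under the limit, and it lay between 0.0102 and 0.277 in the other fits. Its rank was 4 at P5 and 9 at P30, and after quantile normalization the log2 fold change was -0.23.

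Igfbp4 (chromosome 11, 98902558 to 98913969, plus strand) had an FPKM of 2212, 2205 and 2267 at P5 and of 1509, 2083 and 2164.5 at P30. The P5 isolations were close together and the P30 isolations all lay below them, P30 replicates 2 and 3 by a small margin. The log2 fold change was -0.23 (95% interval -0.58 to 0.12, limma adjusted p = 0.249) and the difference did not pass the test.

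Igfbp5 (chromosome 1, minus strand), whose product binds both IGFs and matrix, had an FPKM of 586, 293 and 743 at P5 and of 1175, 2461 and 1694 at P30. The ages did not overlap, but the spread within each age was wide. The log2 fold change was 1.75 (95% interval 0.86 to 2.64, limma adjusted p = 0.0107), just short of the limit, and the adjusted p lay between 0.0106 and 0.0307 over the alternatives. P30 replicate 2, the highest, was also highest in the summed pericyte (6228) and fibroblast (4559) lists, and P5 replicate 2, the lowest, was lowest in the fibroblast list (742). The pericyte list ran otherwise at P5, where replicate 3 had the highest Igfbp5 and the lowest pericyte sum (468). The part of these cells in the level of Igfbp5 was not tested. Without P30 replicate 2 the log2 fold change was 1.48.

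Igfbp6 (chromosome 15, 101974793 to 101979942, plus strand), whose product prefers IGF2, had an FPKM of 1.39, 0.86 and 7.60 at P5 and of 17.9, 19.8 and 100.03 at P30. It was the member with the lowest level at P5, and P30 replicate 3 stood far above the other P30 isolations. The log2 fold change on the log2(FPKM + 1) scale, which understates changes of low genes, was 3.34 (95% interval 1.48 to 5.20, limma adjusted p = 0.0150), so Igfbp6 did not pass the limit. Without P30 replicate 3 the log2 fold change was 2.56, and without P5 replicate 3 it was 4.02. With array weights, which give less weight to the more variable isolations, the adjusted p was 0.00625. P30 replicate 3 had the lowest RPE (495), smooth muscle (201), photoreceptor (41.8), melanocyte (119.9) and Schwann cell (42.4) sums of the P30 isolations. Its pericyte (3819), fibroblast (2419.8) and haematopoietic (654) sums lay between those of P30 replicates 1 and 2. The part of other cells in Igfbp6 was not tested.

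Igfbp2 (chromosome 1, plus strand), made by many embryonic tissues and epithelia, had an FPKM of 16.96, 9.91 and 8.79 at P5 and of 39.0, 76.7 and 7.73 at P30. P30 replicate 3 lay below every P5 isolation while the other P30 isolations lay above, so the ages overlapped. The log2 fold change was 1.27 (95% interval -0.44 to 2.99, limma adjusted p = 0.202), and without P30 replicate 3 it was 2.17 (adjusted p = 0.00723), while without P30 replicate 2 it was 0.59. The order of the P30 isolations in Igfbp2 was that of the summed smooth muscle list (361, 854 and 201). Replicate 3 was also the lowest of the P30 isolations in the RPE, photoreceptor, melanocyte and Schwann cell lists. Unlike Igfbp2, its smooth muscle, RPE and photoreceptor sums were above those of every P5 isolation. Its melanocyte and Schwann cell sums lay within the P5 range. The part of these cell types in Igfbp2 was not tested.

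By mean FPKM, the order at P5 was Igfbp3, Igfbp7, Igfbp4, Igfbp5, Igf1, Insr, Igf1r, Igfbp2 and Igfbp6, and of these neighbours the ranges of the isolations overlapped between Igf1 and Insr alone. At P30 the order was Igfbp7, Igfbp3, Igfbp4, Igfbp5, Insr, Igf1, Igfbp6, Igfbp2 and Igf1r. There, ranges overlapped between Igfbp7 and Igfbp3, between Igfbp4 and Igfbp5, and for each neighbouring pair from Igf1 to Igf1r. Insr moved from rank 3594 to rank 1100 among the genes tested, and Igfbp5 from 390 to 89. The coefficient of variation at P30 was between 11.0% and 26.6% for Igfbp3, Igfbp4, Igfbp7, Igf1r and Insr, and between 36.4% and 102% for Igfbp5, Igf1, Igfbp2 and Igfbp6.

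The 4 abundant binding protein genes differ in their promoters, shown here as the 120 bases before the RefSeq start (GRCm38.p6, 5′ to 3′ on the gene's strand). A relation of these letters to the change with age was not tested. Capitals mark matches to TATANA, a form of the TATA box, and to GGGCGG, the GC box bound by Sp1-type factors, each searched on both strands, where matches of the former on opposite strands can overlap:
Igfbp7 (chr5:77408046-77408165, minus strand): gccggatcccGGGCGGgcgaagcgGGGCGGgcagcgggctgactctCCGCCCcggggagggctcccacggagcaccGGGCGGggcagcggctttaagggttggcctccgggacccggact
Igfbp3 (chr11:7213924-7214043, minus strand): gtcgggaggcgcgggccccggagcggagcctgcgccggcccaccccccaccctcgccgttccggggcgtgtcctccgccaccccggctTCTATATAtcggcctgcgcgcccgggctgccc
Igfbp4 (chr11:99041124-99041243, plus strand): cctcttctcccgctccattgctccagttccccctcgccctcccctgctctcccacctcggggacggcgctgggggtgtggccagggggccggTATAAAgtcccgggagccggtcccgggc
Igfbp5 (chr1:72874866-72874985, minus strand): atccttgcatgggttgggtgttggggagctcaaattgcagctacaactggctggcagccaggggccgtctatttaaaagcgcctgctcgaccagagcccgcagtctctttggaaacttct
The whole RefSeq window had 300 bases (250 before the start and 50 after). In it, Igfbp7 held 4 matches to GGGCGG and none to TATANA. Igfbp3 and Igfbp4 held matches to TATANA and none to GGGCGG, and Igfbp5 held no match to either. Other forms of the TATA box were not searched, so a gene without a match may still have one. Of all 32851 promoters in the table, 24.7% held the TATA box letters and 35.7% the GC box letters. GTAAACA, a site of FOXO factors, which act downstream of both receptors, was in none of the windows of the 8 members matched and in 3.65% of all promoters. Insr had no entry. These matches describe the letters and not bound factors.

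Around the members, genes of the IGF system were called in both directions. Of 22 further genes in a list of ligands, clearance receptors, proteases and other partners, 12 were tested, 2 were higher at P30, 4 were higher at P5 and 6 were not called, where 5.89% and 5.82% of all genes tested were called higher at P30 and at P5. The other 10 were below the minimum of 5 FPKM, and 3 of them, Igfbpl1, Insrr and Ins1, were listed at 0 in every sample. Their median log2 fold change was -0.31, against -0.10 for all genes tested.

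Igf2, the ligand of fetal growth, had an FPKM of 594, 1077 and 1208 at P5 and of 128, 138 and 79.7 at P30 (log2 fold change -3.02, limma adjusted p = 0.000524). Igf2 was thus above Igf1 in each P5 isolation, while at P30 their ranges overlapped. Igf2r, which clears IGF2 from the cell surface, fell from 180 ± 8.83 to 73.5 ± 18.4 (log2 fold change -1.31, limma adjusted p = 0.00166), with an adjusted p of 0.0101 and 0.0124 without P5 replicates 2 and 3. Igf2bp3, a fetal protein that binds Igf2 mRNA, fell from 41.2 ± 5.80 to 1.35 ± 0.936 (log2 fold change -4.23, limma adjusted p = 0.000265). Cd93, the partner of IGFBP7 on ECs, fell from 1465 ± 72.0 to 673 ± 57.1 (log2 fold change -1.12, limma adjusted p = 0.000366), in the opposite direction to Igfbp7. Antisense transcripts overlap Igf2 and Igf2r, and reads of both strands may be in their FPKM.

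Stc1 encodes stanniocalcin-1, an inhibitor of the PAPP-A proteases, which cleave IGF binding proteins. Stc1 had an FPKM of 133, 96.5 and 91.5 at P5 and of 685, 685 and 795 at P30. It did not overlap between ages and had the smallest SE of the 4 genes of both pathway lists called higher at P30 (log2 fold change 2.76, SE 0.16, limma adjusted p = 9.2e-05). The genes of these proteases, Pappa and Pappa2, were below the minimum, with means of 0.0933 and 4.36 at P5 and 0.213 and 2.83 at P30. Ins2, an insulin gene, was listed at 0 in each P5 isolation and at 12.7, 10.8 and 5.94 in P30 replicates 1, 2 and 3 (limma adjusted p = 0.00253). The summed RPE list had the same order (3796, 2109 and 495), and so did the photoreceptor, melanocyte and Schwann cell lists. The part of RNA from any of these cells in Ins2 was not tested. The adjusted p of Ins2 was 0.0126, 0.0112 and 0.0116 without P5 replicate 2, P5 replicate 3 and P30 replicate 2.

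In the signalling chain below the receptors, Irs2 and Socs3 rose and Grb10 fell. Of 41 genes listed, 40 were found and 39 tested, of which 2 were higher at P30, 1 was higher at P5 and 36 were not called, shares near or below the 5.89% and 5.82% of all genes. Over the 39, the median was 0.04 on the log2 scale. Irs2, the adaptor of both receptors, had an FPKM of 8.64, 3.57 and 5.36 at P5 and of 43.7, 149 and 44.2 at P30 (log2 fold change 3.36, SE 0.51, limma adjusted p = 0.00261). Its P30 replicate 2 was far above the others, and the pericyte, fibroblast and smooth muscle sums were also highest there. Their part was not tested, and Irs2 was not called without P5 replicate 2 or 3. Irs1 was low, at 3.32 ± 1.04 and 6.43 ± 4.10 (limma adjusted p = 0.287). Socs3, a feedback inhibitor of cytokine and insulin signalling, rose from 399 ± 125 to 1985 ± 598 (log2 fold change 2.31, limma adjusted p = 0.00110), and Grb10, an adaptor that restrains both receptors, fell from 601 ± 52.5 to 212 ± 3.92 (log2 fold change -1.50, limma adjusted p = 0.000131). Foxo1, the main FOXO factor of ECs, had 221 ± 5.78 and 228 ± 26.3 (log2 fold change 0.04, 95% interval -0.22 to 0.29, limma adjusted p = 0.818).

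**Figure D5:**
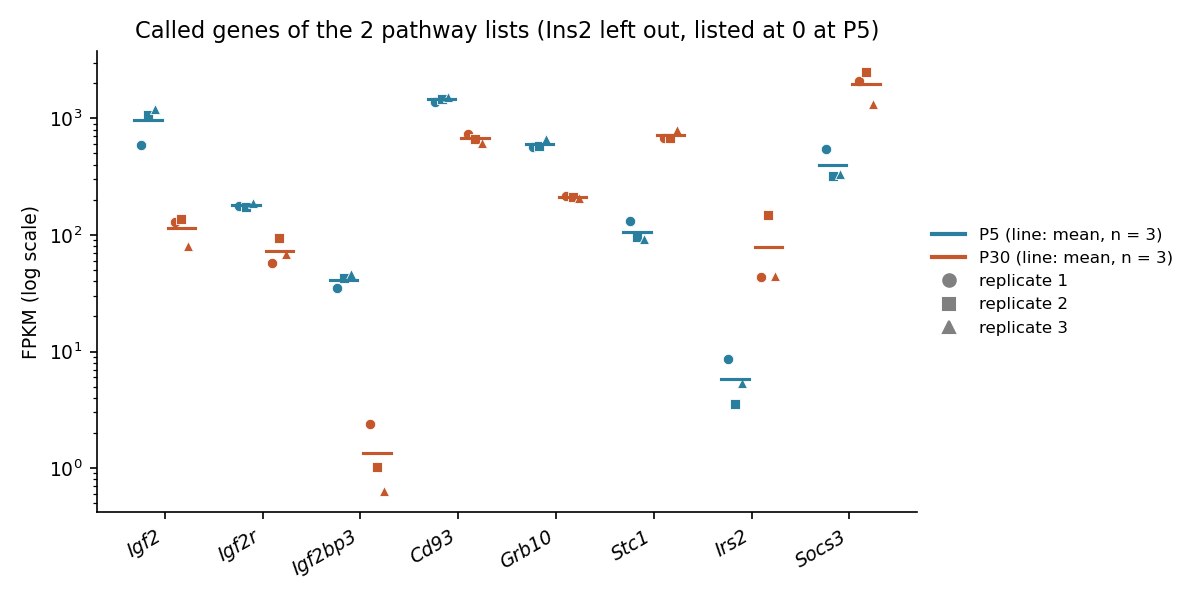
FPKM (log axis) of the called genes of both pathway lists in each isolation, with symbols for replicates and lines for means of 3. Igf2, Igf2r, Igf2bp3, Cd93 and Grb10 were lower in every P30 isolation, and Stc1, Irs2 and Socs3 were higher. Ins2 is left out.

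Genes whose levels ran most like those of the called members were taken by Pearson correlation of log2(FPKM + 1) over the 6 isolations, among all genes tested. For Insr these were Etv3, Clpp and Neu3 (r of 0.9993, 0.9987 and 0.9985), with P30 means of 118, 76.9 and 16.6 FPKM. For Igfbp7 they were Ctdsp1, Tmem109 and Impact (r of 0.998, 0.996 and 0.995), with P30 means of 387, 327 and 206. The isolations differ by age and these values are a description of 6 samples.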

How the data were processed

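RNA of sorted choroid ECs was sequenced by the authors on an Illumina HiSeq2000 (3 isolations at P5, 3 at P30). Per the labels and the paper's methods, reads (CASAVA 1.8.2) were aligned to mm9 with TopHat and the authors deposited FPKM values from Cufflinks with GC and upper quartile normalization, 1 per gene symbol; the versions of TopHat and Cufflinks and the annotation are not given in the sources used here. Since FPKM are not counts, depth is unknown and no counting interval is given. Here log2(FPKM + 1) was fitted with limma 3.58.1 in R 4.3.3 (lmFit, eBayes with a trend, no block) to the 12481 genes whose average reached 5 FPKM at P5, at P30 or at both. A call needed a Benjamini-Hochberg adjusted p below 0.01 together with a 2-fold change of the mean FPKM + 1, the limits of the study's methods, which used a count test. Intervals are 95% from limma. The fit was tested on simulated data.

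The 9 members were given, and they, the pathway and marker lists and the tests were chosen with earlier results of these data known. Called genes of the pathway lists were named, up to 8 per direction, and the 3 most correlated genes of each called member. Gene positions are from GENCODE M1 on mm9 (9 of 9 symbols matched), and promoters from RefSeq on GRCm38.p6 (8 of 9 matched). Python 3.11.15 was used for the rest.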

Additional observations from a re-analysis of the deposited data

How the results depend on the processing

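The replicate numbers did not pair the isolations: same-numbered isolations had correlations of -0.09 to -0.03 in their deviations from the age means, and none correlated best with its own number. With the replicate block, 2 members were again called higher at P30, Insr and Igfbp6 (adjusted p = 0.00156) in place of Igfbp7 (adjusted p = 0.0105), and 585 genes were called higher at P30 and 524 at P5, against 735 and 726. Of the 9 log2 fold changes, those of Insr, Igfbp2, Igfbp4, Igfbp5, Igfbp6 and Igfbp7 kept their sign in every alternative run, while that of Igfbp3 was -0.23 after quantile normalization and those of Igf1 (-0.51 to 0.19) and Igf1r (-0.26 to 0.11) changed sign with 1 isolation left out. Scaling to the same total and to endothelial markers moved the median of all genes by -0.17 and -0.44 and the calls over all genes to 631 higher at P30 and 1067 at P5, and to 465 and 2073. The count of members called higher at P30 was 2, but 3 with array weights (with Igfbp6) or no fold limit (with Igfbp3), 1 after quantile normalization, 0 with endothelial scaling, and 0 to 3 with 1 isolation left out (1 without P5 replicate 1, 0 without P5 replicate 2 or 3, 3 without P30 replicate 3). The count past the adjusted p alone was 3, but 2 with either other pseudocount, either other minimum, no trend, the same total or the block, 3 with array weights (Igfbp6 in place of Igfbp3), 1 after quantile normalization, 1 with endothelial scaling, and 0 to 3 with 1 isolation left out. The runs with 1 isolation left out hold fewer samples. Over all genes, calls higher at P30 and at P5 were 519 and 427, 404 and 291, and 396 and 297 without P5 replicates 1, 2 and 3. They were 734 and 727, 543 and 754, and 849 and 704 without P30 replicates 1, 2 and 3. The cause of the changes in the counts was not tested. In the list of the IGF system, the count higher at P30 ran from 1 to 3 with 1 isolation left out, and Ins2 was also not called with the block (adjusted p = 0.0128). In the signalling list, the count higher at P30 was 4 after quantile normalization and 1 to 3 with 1 isolation left out, and the count higher at P5 was 3 with endothelial scaling and 5 with no fold limit. The ratio of summed binding protein FPKM was 1.07 after quantile normalization, 1.57 with the same total, 1.29 with endothelial scaling, and 1.66 to 1.84 with 1 isolation left out. Depth is unknown, which limits the reading of low levels. These were 0.86 to 7.60 FPKM for Igfbp6 and 3.57 to 8.64 for Irs2 at P5. Ins2 was at 0 at P5 and at 5.94 to 12.7 at P30.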

Other observations

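Some signalling genes passed an adjusted p of 0.01 without reaching 2-fold, and are named here after their values were seen. Akt2, an AKT kinase known for insulin action, had a mean FPKM of 23.05 ± 0.837 at P5 and rose to 45.0 ± 8.78 at P30 (SD, n = 3). Its log2 fold change was 0.92 (limma adjusted p = 0.00738). Akt1, more abundant than Akt2 in these cells, had 485 ± 27.1 and 407 ± 10.7 (log2 fold change -0.25, limma adjusted p = 0.0581). Gab1, an adaptor of receptor tyrosine kinases, fell by 0.69 on the log2 scale (limma adjusted p = 0.00208), and Gsk3b, a kinase that AKT inhibits, fell by 0.54 (limma adjusted p = 0.00706).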
